A study of Rattus norvegicus and Bos taurus with 12 samples.

Results

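The genes described here encode the rat MHC class II molecules and the invariant chain, which handle antigen for presentation to helper T cells. Their 7 symbols (Cd74, RT1-Da, RT1-Db1, RT1-Ba, RT1-Bb, RT1-DMa and RT1-DMb) were looked up by name in the 2 deposited expression tables. Of the 7, 6 are among the 7052 genes listed for adult rat ventricular myocytes (ARVM) and 1, CD74, is among the 2115 genes listed for bovine cardiac fibroblasts (Cfib). RT1-DMb is listed in neither table. The genes were chosen for how they differed between the groups of this series, so their values below are a description and carry no test.

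The study compared 3 libraries of freshly isolated, untreated ARVM from Sprague Dawley rats (control ARVM con4, con5 and con6) with 3 libraries of ARVM kept for 7 days in conditioned medium of right ventricular Cfib from calves with pulmonary hypertension (PH-CM ARVM ha2, ha209 and ha211), and 3 libraries of cultured Cfib from control (CO) calves with 3 from calves with pulmonary hypertension (PH). PH was induced by housing newborn calves at reduced air pressure, and the Cfib were low-passage cultures that had been in serum-free medium before harvest. The sample labels name the sera of cattle living at low and at high altitude as treatments, whereas the series design and the paper describe untreated ARVM, PH-CM and the cells of CO and PH calves, and the latter names are used here. The ages of the rats and calves are not given in the sources used here beyond adult and newborn. Time in culture and exposure to PH-CM differ together between the ARVM groups and cannot be told apart. The paper describes the Cfib as taken from 3 animals in each group. For ARVM neither the labels nor the paper say whether the libraries came from separate rats or cultures, so the SDs and standard errors (SE) of ARVM measure the spread between libraries, which may be technical.

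ARVM values are normalized read counts, that is, reads divided by the size factor of the library, and 12122463 to 18842171 reads per library fell on listed genes. Both tables list only genes that the authors had selected for a difference between the groups. With limma on log2(value + 1), 97.6% of the listed ARVM genes passed an adjusted p of 0.05, 53.9% as higher and 43.7% as lower in PH-CM ARVM, and in 100% of them the groups did not overlap. A gene that is not listed may have been unchanged, too low or left out for another reason, and nothing is read from its absence. In all that follows n is 3 libraries per group, means are given with the SD, and a log2 fold change is PH-CM minus control (or PH minus CO) on the log2(value + 1) scale, which understates the change of low genes.

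MHC class II molecules are pairs of an α and a β chain that display peptides from proteins taken up by the cell. In rats the RT1-D locus (RT1-Da and RT1-Db1, the counterparts of human HLA-DR) and the RT1-B locus (RT1-Ba and RT1-Bb, the counterparts of HLA-DQ) encode these pairs. The invariant chain, the product of Cd74, binds new α and β chains in the endoplasmic reticulum, blocks their peptide groove and directs them to endosomes. There, proteases such as cathepsin S trim it to a short remnant, and the RT1-DM pair (the counterpart of HLA-DM) exchanges that remnant for a peptide. Dendritic cells, macrophages and B cells make these proteins constantly, other cells can make them when exposed to interferon γ, and in the healthy heart resident macrophages are a known site of class II expression. The transactivator CIITA acts on class II and Cd74 promoters through a complex of RFX, CREB and NF-Y, of which NF-Y binds the CCAAT motif, also called the Y box.

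The promoters of the 6 listed genes are shown because the genes share this regulation. They are the RefSeq sequences of the GRCr8 assembly, a later build than the rn6 used for the reads, and each run spans the CCAAT motif and its surroundings, 5′ to 3′ on the strand of the gene. Capitals mark CCAAT or its reverse complement ATTGG.
Cd74, chr18:56526956-56527046 (plus strand): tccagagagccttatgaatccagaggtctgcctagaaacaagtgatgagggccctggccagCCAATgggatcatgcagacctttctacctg
RT1-Da, chr20:4515296-4515395 (plus strand): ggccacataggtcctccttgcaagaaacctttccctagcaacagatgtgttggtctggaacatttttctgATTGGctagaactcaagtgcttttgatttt
RT1-Db1, chr20:4560213-4560312 (minus strand): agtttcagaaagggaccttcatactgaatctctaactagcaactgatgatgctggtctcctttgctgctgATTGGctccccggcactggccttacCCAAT
RT1-Ba, chr20:4576944-4577043 (plus strand): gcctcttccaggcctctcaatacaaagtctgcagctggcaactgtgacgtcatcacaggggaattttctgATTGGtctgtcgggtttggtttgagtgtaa
RT1-Bb, chr20:4604150-4604249 (minus strand): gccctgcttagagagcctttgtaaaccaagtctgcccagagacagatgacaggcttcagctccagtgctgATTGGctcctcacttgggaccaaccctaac
RT1-DMa, chr20:4712370-4712469 (minus strand): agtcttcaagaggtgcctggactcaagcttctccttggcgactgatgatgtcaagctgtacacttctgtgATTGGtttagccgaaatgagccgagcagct

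At least 1 CCAAT on either strand was found in the 250 bases before the start in 6 of 6 genes, against 34.3% of the 27457 rat genes in the promoter table, searched over the same 250 bases. In the 5 RT1 genes the first base of ATTGG lies 43 to 80 bases before the start. There the motif reads GATTGG, the reverse complement of CCAATC, which 13.8% of the rat genes in the promoter table hold. In RT1-Da, RT1-Db1, RT1-Ba and RT1-Bb it reads CTGATTGG, the reverse complement of CCAATCAG, found in 3.26% of them. Cd74 differs in this window, with CCAAT on the strand of the gene and 189 bases before the start. The 3 motifs are nested, so their matches overlap, and they were spelled out after the sequences had been read. No sequence of RT1-DMb was in the table. Whether these sequences relate to the direction of a gene in these data was not tested.

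Cd74 and the class II genes differed in opposite directions between the ARVM groups. Cd74 was 14.9-fold lower in PH-CM ARVM, whereas the 5 listed genes of the class II chains and of RT1-DM were 3.72-fold to 73.3-fold higher by their means, apart from RT1-Db1, for which no read was counted in any control library. A mean higher in PH-CM ARVM was found in 55.1% of all listed ARVM genes. The median log2 fold change was 3.24 over the 6 genes and 3.72 over the 5 without Cd74, beside 0.37 over all listed ARVM genes. These directions are what the genes were chosen on.

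Cd74 had 6778, 6737 and 6559 normalized counts in control ARVM con4, con5 and con6. In PH-CM ARVM ha2, ha209 and ha211 it had 523, 424 and 401. The 3 control libraries lay within a narrow range, and each lay far above every PH-CM library. The groups did not overlap, as in 100% of the listed ARVM genes. The means were 6691 ± 117 and 449 ± 65.0, the log2 fold change was −3.90 (SE 0.10), and with single libraries left out it ran from −4.02 to −3.83. The values rest on 16922 reads in the control and 1657 in the PH-CM libraries. Of all listed ARVM genes, 66 (0.936%) had a log2 fold change as low as that of Cd74 or lower, Cd74 included.

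RT1-Da, the α chain of the RT1-D pair, had 33.2, 43.9 and 28.9 normalized counts in the control libraries and 158, 117 and 119 in the PH-CM libraries. All PH-CM libraries lay above all control libraries, with PH-CM ARVM ha2 the highest. The groups did not overlap, as in 100% of the listed ARVM genes. Its mean was 3.72-fold higher in PH-CM ARVM (35.4 ± 7.72 against 132 ± 23.0, log2 fold change 1.87, SE 0.27). It was the member with the smallest fold difference and, of the 5, the one with the most control reads, 90 in all.

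RT1-Db1, the β chain that pairs with it, had 0 reads in every control library and 48.4, 29.3 and 22.9 normalized counts in the PH-CM libraries, from 64, 34 and 27 reads. A floor of 3 reads over the control group equals 1.18 normalized counts, against which the PH-CM mean of 33.5 ± 13.3 was at least 28.3-fold higher. The floor, like every interval from reads here, covers counting error only. RT1-Db1 has a close relative, RT1-Db2, which is not listed, and reads may have been assigned between such copies or lost on alleles unlike the reference, so its level is uncertain.

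The RT1-B pair had at most 103 normalized counts in any library. RT1-Ba, its α chain, had 0, 15.0 and 0 normalized counts in the control libraries and 41.6, 25.0 and 32.2 in the PH-CM libraries. All 14 control reads of RT1-Ba were in control ARVM con5. Its mean was 6.59-fold higher in PH-CM ARVM (5.0 ± 8.66 against 32.9 ± 8.31), and without control ARVM con5 it was at least 17.6-fold higher. The log2 fold change was 3.72 (SE 1.02), 5.06 without control ARVM con5 and 3.06 without control ARVM con4 or con6. RT1-Bb, the β chain, had 20.6, 12.9 and 5.17 normalized counts in the control and 71.1, 75.1 and 103 in the PH-CM libraries. It was counted in every library, and the groups did not overlap, as in 100% of the listed ARVM genes. Its mean was 6.46-fold higher in PH-CM ARVM (12.9 ± 7.70 against 83.1 ± 17.5, log2 fold change 2.76, SE 0.48).

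RT1-DMa, the α chain of the peptide exchanger, had the highest PH-CM level of the 5 in normalized counts, which are not scaled by gene length. It had 14.2, 0 and 0 in the control libraries, where all 9 reads were in control ARVM con4, and 358, 264 and 421 in the PH-CM libraries, from 1278 reads. The groups thus differed between hardly any reads and 306 or more per library. Its mean was 73.3-fold higher in PH-CM ARVM (4.75 ± 8.22 against 348 ± 79.3), and without control ARVM con4 it was at least 221-fold higher. The log2 fold change was 7.11 (SE 0.99), 8.42 without control ARVM con4 and 6.46 without control ARVM con5 or con6.

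**Figure D1:**
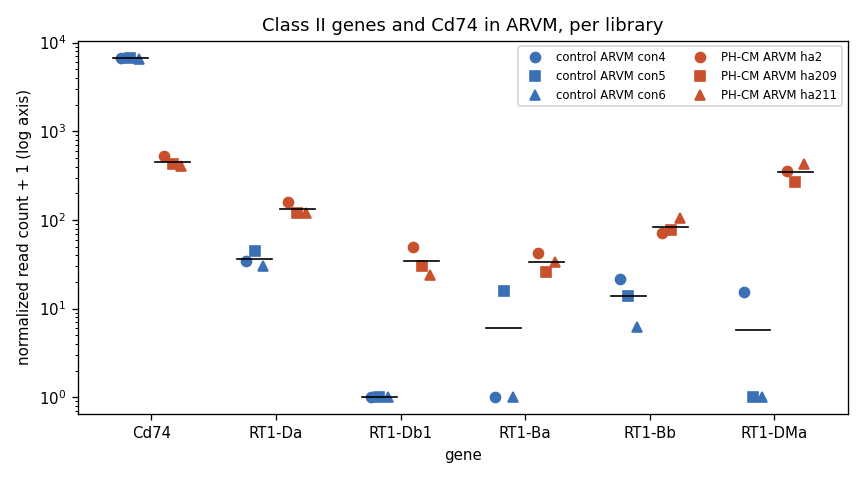
Normalized read count + 1 on a log axis for Cd74 and the 5 listed class II genes in each ARVM library, with control libraries in blue, PH-CM libraries in red and the group mean as a line. Cd74 falls from 6691 to 449 on average, while the other 5 genes are lower in the control libraries, where RT1-Db1 is at 0 in all 3 and RT1-Ba and RT1-DMa are at 0 in 2 of 3.

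The ratio of Cd74 to RT1-Da and to RT1-Bb was lower in every PH-CM library than in every control library. A lower ratio follows from the opposite directions on which these genes were chosen, so it is no separate result. The log2 ratio of Cd74 to RT1-Da was 7.67, 7.26 and 7.82 in the control libraries and 1.73, 1.85 and 1.75 in the PH-CM libraries, a change of −5.81. The log2 ratio of Cd74 to RT1-Bb was 8.36, 9.03 and 10.31 in the control libraries and 2.88, 2.50 and 1.96 in the PH-CM libraries, a change of −6.79. The ratio is not scaled by gene length, so its change between groups can be read but its size in a group cannot. It was taken from the normalized counts with nothing added, for genes with reads in every library, so the size factor of a library cancels.

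The listed genes of the class II transcription complex differed less than the class II genes and in both directions, with log2 fold changes from −0.64 to 0.70. Of 8 genes in that list 4 were listed, 2 higher and 2 lower (median log2 fold change −0.01), and Ciita, the transactivator itself, was not listed. Rfx5, a subunit of the RFX complex, had 624, 706 and 644 normalized counts in the control and 848, 871 and 835 in the PH-CM libraries, a log2 fold change of 0.37 (SE 0.08). Creb1, a CREB factor, had a log2 fold change of 0.70 (SE 0.20). Rfxank, another RFX subunit, and Nfyc, an NF-Y subunit, were lower, with log2 fold changes of −0.40 (SE 0.14) and −0.64 (SE 0.08). None of the 19 other class II symbols of rat and cattle that were searched, RT1-Db2 and the RT1-DO genes among them, was listed.

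The 10 listed of 18 genes for the processing of the invariant chain and for class II compartments were all higher in PH-CM ARVM (median log2 fold change 1.14). Ctss, cathepsin S, which trims the invariant chain, had 7.91, 7.50 and 0 normalized counts in the control and 240, 174 and 270 in the PH-CM libraries. This is a 44.4-fold difference of the means, with a log2 fold change of 5.73 (SE 0.81). The groups did not overlap, as in 100% of the listed ARVM genes. Ctsz, the lysosomal protease cathepsin Z, rose 8.31-fold (241 ± 73.5 against 2004 ± 285, log2 fold change 3.09, SE 0.23). Cd82, a tetraspanin found in class II compartments, had a log2 fold change of 1.69 (SE 0.15). Ctsl, cathepsin L, was abundant in both groups and differed by 0.32 (SE 0.08) on the log2 scale. March1, a ubiquitin ligase that removes class II from the cell surface, had no reads in the control libraries and 3.78, 2.59 and 6.77 normalized counts in the PH-CM libraries, at least 3.70-fold higher.

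Cd74 is also the surface receptor for macrophage migration inhibitory factor (Mif), with Cd44 and Cxcr4 as partners. Mif rose from 2127 ± 132 to 4333 ± 205 normalized counts (log2 fold change 1.03, SE 0.07). Cd44, the signaling partner, rose with a log2 fold change of 0.66 (SE 0.07). Cxcr4, a chemokine receptor, fell with a log2 fold change of −0.57 (SE 0.09). Ligand and receptor thus moved in opposite directions at the RNA level. Mif, Cd44 and Cxcr4 belong to the list of T cell costimulation and partner genes, of which 9 of 17 were listed, 6 higher and 3 lower (median log2 fold change 0.66). Tnfsf9 (4-1BB ligand) and Tnfsf4 (OX40 ligand) were higher, with log2 fold changes of 4.03 (SE 0.79) and 3.71 (SE 0.90), and all 9 control reads of Tnfsf4 were in con5. Pdcd1lg2 and Cd274, the ligands of the PD-1 receptor, were lower, with log2 fold changes of −3.86 (SE 0.79) and −2.26 (SE 0.25). Cd80, Cd86 and Cd40, through which antigen-presenting cells stimulate T cells, were not listed.

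MHC class I, which presents peptides made inside nearly every cell, was set beside class II. Of the class I chains 10 were listed, 7 called higher and 3 lower (median log2 fold change 0.85). B2m, the light chain of class I molecules, differed by 0.20 (SE 0.07). It lost its call when the libraries were rescaled by the median of ratios, which moved the median over all genes by −0.02. The largest rises were in non-classical class I genes. Cd1d1, which presents lipids, had 50.6, 84.6 and 107 normalized counts in the control and 456, 417 and 436 in the PH-CM libraries, a 5.39-fold difference (log2 fold change 2.48, SE 0.27). RT1-M3-1, which presents formylated peptides, rose 4.88-fold (log2 fold change 2.31, SE 0.17), and Mr1, which presents vitamin B metabolites, rose 3.51-fold (1.76, SE 0.27). RT1-T24-3, a further class I-like gene, fell 3.20-fold (−1.71, SE 0.25), and RT1-S3 and RT1-CE7 differed by −0.40 (SE 0.08) and −0.21 (SE 0.08). The rat class I chains are many similar copies, and how reads were divided among them is not given in the sources used here, so the values of single chains are uncertain.

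Of the genes that make and load class I peptides, 9 of 15 were listed, 8 higher and 1 lower (median log2 fold change 0.69). Psmb8, a subunit of the immunoproteasome, rose 2.16-fold (log2 fold change 1.12, SE 0.16). Pdia3, a chaperone of the loading complex, rose 1.90-fold (0.92, SE 0.05), and Tapbpl, the peptide editor TAPBPR, rose 1.85-fold (0.88, SE 0.11). Psme1, a subunit of the proteasome activator, was the lower gene (−0.19, SE 0.06). The peptide transporters Tap1 and Tap2 were not listed.

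Interferon γ is the cytokine best known to raise class II. Of the 27 genes of its path and targets 16 were listed, 8 higher and 8 lower (median log2 fold change 0.10), and Ifng was not listed. Its listed chemokine targets differed in direction, with Cxcl9 lower and Cxcl10 and Cxcl11 (log2 fold change 0.62, SE 0.11) higher. Cxcl9 had 250, 176 and 218 normalized counts in the control and 5.29, 8.63 and 6.77 in the PH-CM libraries, 31.1-fold lower (log2 fold change −4.78, SE 0.30). Cxcl10 had 253, 242 and 238 in the control and 4066, 5800 and 4300.1 in the PH-CM libraries, 19.3-fold higher (4.25, SE 0.13). Nos2, the inducible nitric oxide synthase, fell 3.55-fold (−1.94, SE 0.56), or 5.82-fold without ha209. Irf1, a direct target of interferon signaling, differed by −0.16 (SE 0.06).

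Genes of leukocytes were higher in PH-CM ARVM along with the class II chains. Of 22 pan-leukocyte genes 13 were listed, 12 higher and 1 lower (median log2 fold change 3.75). The median of the 5 class II genes, 3.72, is the value of RT1-Ba (SE 1.02), and the 5 ran from 1.87 to 7.11. Ptprc, the common leukocyte antigen CD45, had 11.1, 0 and 0 normalized counts in the control and 87.0, 74.2 and 139 in the PH-CM libraries (log2 fold change 5.41, SE 0.94), and without con4 it was at least 63.4-fold higher. Itgb2, the β subunit of leukocyte integrins, rose 61.8-fold (6.23, SE 0.85), 93.4-fold without con4 and 41.2-fold without con6. Cd53, a leukocyte tetraspanin, rose 28.0-fold (5.13, SE 0.86), or 52.0-fold without con4. Cd48 was the lower gene (−0.36, SE 0.09). Summed over the list, the control libraries had 1478 to 1598 and the PH-CM libraries 3550 to 5046 normalized counts, and without Cd48, which carries most of the control signal, 385 to 434 and 2756 to 4084. In bulk RNA, more cells of a type and more RNA per cell cannot be told apart.

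Of 42 macrophage genes 33 were listed, 32 higher and 1 lower (median log2 fold change 3.80). Mmp12, the macrophage elastase, had no reads in the control libraries and 808, 544 and 903 normalized counts in the PH-CM libraries, at least 635-fold higher. C1qc, a chain of complement C1q, had 0, 0 and 5.17 in the control and 367, 306 and 341 in the PH-CM libraries (log2 fold change 7.53, SE 0.69). Lyz2, lysozyme, rose from 40.8 ± 14.3 to 6237 ± 1358 (7.26, SE 0.26). The defining markers Cd68, Csf1r and Adgre1 were counted in every control library, at 38.4 ± 21.2, 48.1 ± 10.5 and 48.1 ± 28.7, and Folr2, a marker of resident macrophages, was at 0 in all 3. Hmox1, the heme-degrading enzyme heme oxygenase, was the lower gene (−0.87, SE 0.20) and carries most of the list's control signal. Without it the summed level was 2052 to 2103 in the control and 23074 to 36330 in the PH-CM libraries. Cd74 went the other way from every listed macrophage gene but Hmox1. The part of these cells in the class II values was not tested.

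Lists of the other antigen-presenting cells were less uniform. Of 20 dendritic cell genes 9 were listed, 7 higher and 2 lower (median log2 fold change 2.92, or 2.54 with Clec4a1, which had no control reads, at its lower bound), and the summed level was 2464 to 2871 in the control and 1848 to 2676 in the PH-CM libraries. Ccl22, a chemokine of mature dendritic cells and macrophages, fell 99.0-fold, from 1933 ± 157 to 19.5 ± 8.21 (log2 fold change −6.63, SE 0.28). It carries most of the list's control signal, so the summed level does not show the direction of the 7 higher genes. Clec10a, a lectin of macrophages and dendritic cells, rose 24.8-fold (5.18, SE 0.88), with all 9 control reads in con5, without which it was at least 42.5-fold higher. Naaa, a lysosomal amidase, rose 21.5-fold (4.66, SE 0.82), or 33.8-fold without con5. Clec9a, a lectin of cross-presenting dendritic cells, fell 3.38-fold (−1.91, SE 0.53). The remaining higher genes were Ccr7 (4.62, SE 0.48), Irf4 (3.18, SE 0.73), Cadm1 (1.95, SE 0.35) and Fscn1 (1.57, SE 0.16). The lineage genes Flt3, Zbtb46 and Xcr1 were not listed. The part of dendritic cells in the class II values was not tested.

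Of 19 B cell genes 5 were listed, 3 higher and 2 lower (median log2 fold change 3.27), and the summed level was 120 to 189 in the control and 322 to 349 in the PH-CM libraries. Cd72, Cd24 and Btk, none of which is particular to B cells, rose with log2 fold changes of 3.52 (SE 1.09), 3.45 (SE 0.39) and 3.27 (SE 0.49), and Cd79b, of the B cell receptor, and Fcer2, the low-affinity IgE receptor, were lower. The defining genes Ms4a1 and Cd79a were not listed. Of 28 T and NK cell genes 5 were listed, of which 4 rose and 1 fell, and the summed level was 72.3 to 96.4 in the control and 1730 to 2441 in the PH-CM libraries. Most of that sum is Thy1 (0, 5.36 and 0 against 1625, 1615 and 2327), which is also a fibroblast marker. Cd4, which rat macrophages carry as well as helper T cells, had no control reads and was at least 50.5-fold higher, Lat, an adaptor of the T cell receptor, rose 10.4-fold (3.95, SE 0.89), or at least 17.8-fold without con5, which held its control reads, and Cd6 was lower (−2.33, SE 0.27). The T cell receptor genes Cd3e, Cd3d and Cd3g were not listed, nor was any of 17 neutrophil and mast cell genes. The part of B and T cells in the class II values was not tested.

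**Figure D2:**
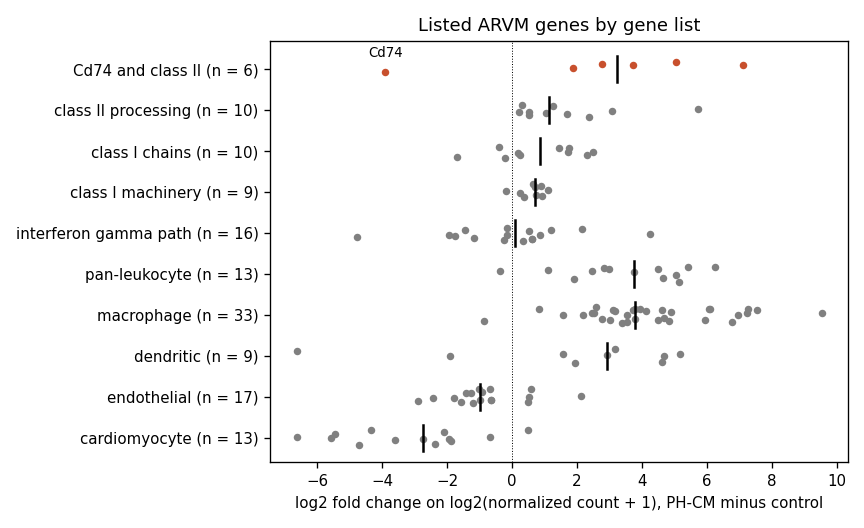
Log2 fold change, PH-CM minus control, of every listed ARVM gene in 10 gene lists, 1 point per gene, with the list median as a bar, n in the label and a dotted line at 0. The 5 class II genes lie between 1.87 and 7.11 and Cd74 at −3.90, the pan-leukocyte and macrophage medians are 3.75 and 3.80, and the cardiomyocyte median is −2.73.

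The libraries also differed in the genes of the labelled cell type. Of 14 cardiomyocyte genes 13 were listed, 12 lower and 1 higher (median log2 fold change −2.73). Mb, myoglobin, fell 97.1-fold (−6.62, SE 0.15), Myh6, the adult α-myosin heavy chain, fell 47.6-fold to 6909 ± 623 normalized counts (−5.58, SE 0.10), and Myl2, the ventricular light chain, fell 43.4-fold (−5.44, SE 0.13). Cd74, at −3.90, lay inside the range of the cardiomyocyte genes, from −6.62 to 0.49. The endothelial list had 17 of 22 genes listed, 13 lower and 4 higher, with a median of −0.98 and a range from −2.89 (Vwf, von Willebrand factor) through −2.43 (Tek, an angiopoietin receptor) to 2.13 (Plvap, a protein of fenestrated vessels), so Cd74 fell more than every listed endothelial gene. All 13 fibroblast genes were listed and higher, with a median of 5.32, led by Thy1 at 9.95, Col1a1 at 8.07 and Col1a2 at 7.13, the last 2 encoding type I collagen. The 4 listed of 8 erythroid genes were present in the control libraries and at 0 in the PH-CM libraries, where Hbb, hemoglobin β, was at least 1287-fold lower. The part of these cells in the Cd74 value was not tested.

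The 3 PH-CM libraries differed among themselves. Of the 13 pan-leukocyte genes 10 (76.9%), and of the 33 macrophage genes 23 (69.7%), were lowest in PH-CM ARVM ha209, intermediate in ha2 and highest in ha211. The same order was seen in 24.6% of all listed genes. Of the 5 class II genes 1 (20.0%), RT1-DMa, had it. RT1-Da and RT1-Ba were also lowest in ha209 but highest in ha2, RT1-Db1 was lowest in ha211 and highest in ha2, and RT1-Bb was lowest in ha2 and highest in ha211. Cd74 had the order of RT1-Db1, with 401 normalized counts in ha211, 424 in ha209 and 523 in ha2. That order was seen in 7 of the 13 cardiomyocyte genes (53.8%) and in 12.1% of all listed genes. The class II genes rest on few reads, from 27 to 498 per PH-CM library, and the points of a library share its size factor. Some orders turn on few reads, as RT1-Da had 136 reads in ha209 and 141 in ha211, and all are given as a description.

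**Figure D3:**
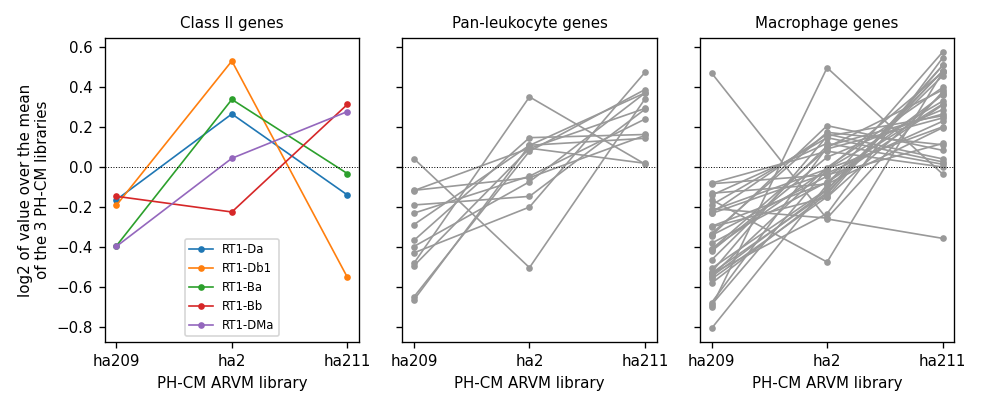
Log2 of the normalized count over the mean of the 3 PH-CM ARVM libraries, 1 line per gene, for the 5 class II genes, 13 pan-leukocyte genes and 33 macrophage genes. Most leukocyte and macrophage lines climb from ha209 to ha211, as 10 of 13 and 23 of 33 do in full order, and among the class II genes RT1-DMa has that order and RT1-Db1 is lowest in ha211.

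The genes most like the 6 together were found from log2(value + 1) over the 6 ARVM libraries, centered per gene, by the root mean square difference from the mean profile of the 6. They were Lamb3, a laminin chain (0.098), Sdc1, the proteoglycan syndecan-1 (0.190), Gsdmd, the pore protein gasdermin D (0.196), Prr16 (0.201) and Ptgs1, cyclooxygenase-1 (0.204). Since Cd74 and the other genes differ in direction, that mean profile is the profile of no member. The search was therefore repeated for each side, after the values had been seen. Among the genes most like Cd74 were Spink8 (0.084), Itgb1bp2, which encodes the muscle chaperone melusin (0.135), Tecrl (0.144) and Rpl3l, the ribosomal protein of striated muscle (0.161). Their log2 fold changes ran from −3.97 (Spink8) to −3.65 (Itgb1bp2), beside −3.90 for Cd74. Over these libraries nearness mainly reflects a like fold change between the groups, on which the members were chosen. A shared cell type or regulation cannot be read from it. The genes most like the mean of the other 5 were Cep55, a gene of cell division (0.094), Evc, of primary cilia (0.145), Tf, transferrin (0.180), Shtn1 (0.252) and Ltk, a receptor kinase (0.255). No leukocyte gene of the lists was among these 5. The 13 pan-leukocyte and 33 macrophage genes are a small part of the 7052 listed genes, so their absence tells little. In the control libraries the mean profile rests partly on RT1-Ba and RT1-DMa, whose control reads each came from a single library.

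In bovine Cfib the deposited signal is scaled by library and by the length of the gene, and its unit (FPKM or TPM) was not settled and its depth is unknown. CD74 had a signal of 0.0280, 0.0893 and 0.298 in CO Cfib 1, 2 and 3 and of 0.847, 1.21 and 1.02 in PH Cfib 1, 2 and 3. The groups did not overlap, as in 100% of the listed Cfib genes, of which 59.7% had the higher mean in PH Cfib, but both were near the foot of the scale. The mean was 7.41-fold higher in PH Cfib (0.138 ± 0.142 against 1.03 ± 0.181), or 17.5-fold without CO Cfib 3, and the log2 fold change was 0.83 (SE 0.12). At this level the log2 fold change follows the pseudocount, with 2.39 at a pseudocount of 0.1 and 0.12 at 10. No class II chain, RT1-DM counterpart or gene of the class II transcription complex was listed. The direction was opposite to that of Cd74 in ARVM, in another species and cell type and another contrast, and the difference was not tested.

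With limma, 97.5% of the listed Cfib genes passed the threshold, 58.2% as higher and 39.4% as lower in PH Cfib, and the median log2 fold change was 0.33. Rescaling by the median of ratios moved the median by −0.27 and changed the split from 1230 higher and 833 lower to 840 and 869. Changes in Cfib are therefore to be read relative to that shift. The log2 fold change of CD74 was 0.73 after rescaling.

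Class I genes were lower in PH Cfib. Of 4 listed class I chains 3 were lower. JSP.1 had a signal of 437, 361 and 553 in CO Cfib and of 75.1, 76.4 and 84.7 in PH Cfib, 5.72-fold lower (log2 fold change −2.48, SE 0.16). BOLA-NC1 fell 3.98-fold (−1.95, SE 0.18) and BOLA-A 2.62-fold (−1.37, SE 0.15). As in the rat, these are similar copies between which reads may have been divided. FCGRT, the neonatal Fc receptor, was higher by 0.39 (SE 0.10) and lost its call after rescaling. TAP1 and TAP2, the 2 chains of the peptide transporter, fell 2.50-fold (−1.28, SE 0.10) and 2.23-fold (−1.11, SE 0.13), and TAPBPL had a log2 fold change of −0.25 (SE 0.08). The 3 listed genes of the interferon γ list were lower as well, GBP5 by −1.66 (SE 0.15), GBP4 by −1.21 (SE 0.17), both interferon-induced GTPases, and the transcription factor IRF1 by −0.69 (SE 0.18). The CD74 partner CXCR4 was lower by −0.63 (SE 0.08), and the protease CTSB by −0.31 (SE 0.08). These calls of lower genes held after rescaling, but rescaling moved the log2 fold changes downward and so hardly put them at risk.

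Some leukocyte genes were higher in PH Cfib, at low signal. The 3 listed of 22 pan-leukocyte genes were LCP1, the actin bundler L-plastin (log2 fold change 1.02, SE 0.08), CD37, a tetraspanin (0.53, SE 0.14), and LAPTM5, a lysosomal protein (0.41, SE 0.08). Their summed signal was 2.70 to 3.33 in CO Cfib and 5.59 to 6.63 in PH Cfib, and PTPRC was not listed. Of 42 macrophage genes 10 were listed, 7 higher and 3 lower. Of the 7 higher, FCGR1A lost its call after rescaling. MMP12 had a signal of 0.221, 1.16 and 0.318 in CO Cfib and of 4.87, 6.72 and 5.19 in PH Cfib (2.11, SE 0.23). C1QA and C1QB, both chains of complement C1q, were listed at 0 in every CO library and had 2.76, 2.63 and 1.92, and 1.72, 1.56 and 1.65, in PH Cfib. TYROBP, a signaling adaptor of myeloid cells, rose 5.05-fold from 0.207 ± 0.190 (0.77, SE 0.14), or 8.43-fold without CO Cfib 1. GPNMB and CD14 were among the lower genes, by −1.98 (SE 0.14) and −1.42 (SE 0.14). The summed macrophage signal was 149 to 208 in CO Cfib and 69.95 to 73.6 in PH Cfib, and in CO Cfib most of it was GPNMB, a gene that is not particular to macrophages.

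Of the other lists in Cfib, the dendritic genes CADM1 (−1.92, SE 0.18) and FSCN1 (−0.24, SE 0.07) were lower, the T cell gene CD247 was higher (0.56, SE 0.15) and lost its call after rescaling, and MMP9, the gelatinase of neutrophils and other cells, was higher (2.65, SE 0.16). Endothelial genes were mixed, with PTPRB (1.29, SE 0.10) and AQP1 (1.25, SE 0.07) among the 5 higher and ESAM (−1.08, SE 0.15) the lower of 6 listed. Of the 5 higher, ENG lost its call after rescaling. The 5 listed of 13 fibroblast genes were higher, with POSTN, periostin, at 3.66 (SE 0.26), FN1, fibronectin, at 1.81 (SE 0.47) and COL1A2 at 1.52 (SE 0.17). No B cell, cardiomyocyte or erythroid gene was listed. The part of macrophages or other cells in the CD74 value of Cfib was not tested.

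**Figure D4:**
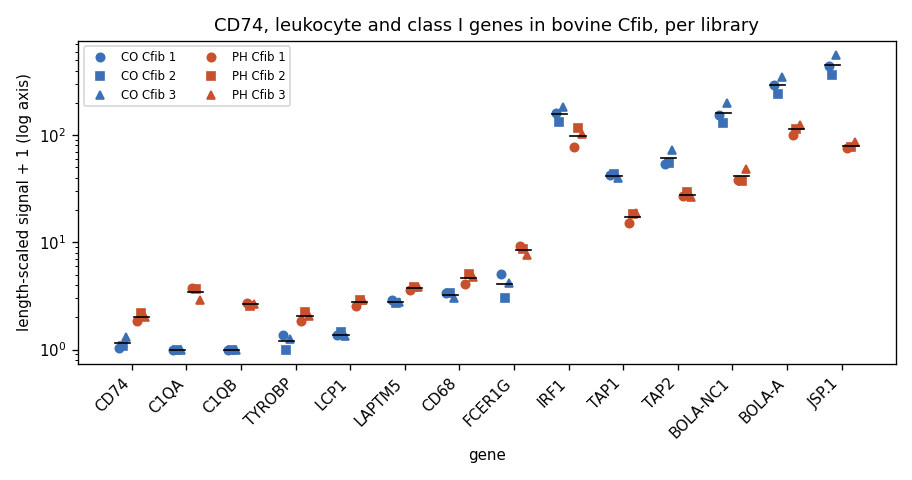
Length-scaled signal + 1 on a log axis for CD74 and genes of the macrophage, pan-leukocyte, interferon and class I lists in each Cfib library, with CO in blue, PH in red and the group mean as a line. CD74 is among the lowest and is higher in PH (1.03 against 0.138), C1QA and C1QB are at 0 in every CO library, and IRF1, TAP1, TAP2, BOLA-NC1, BOLA-A and JSP.1 are lower in PH.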

How the data were processed

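The data are RNA sequencing of 12 libraries, 3 per group. The authors depleted ribosomal RNA, used HISAT2 and StringTie with the rn6 or bosTau8 build, and scaled the counts with DESeq2. They kept genes with a value above 1 in a condition and selected those with a p-value under 0.05. How reads that fit several copies were assigned, and whether counting used the strand, is not given in the sources used here.

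What was deposited is a signal for each gene in each library. In the ARVM table the signal equals reads divided by 1 size factor per library (0.632 to 1.32), since 100% of the values were whole multiples of a step within 0.01 reads, which gave the reads. The smallest value of PH-CM ARVM ha211 was 2 reads and those of the others 1 read. The deposited Cfib signal is scaled by gene length, and its unit and depth are unknown.

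Groups were taken from the sample titles. limma 3.58.1 in R 4.3.3, with a trended eBayes step, was run on log2(value + 1), and p-values were adjusted by Benjamini-Hochberg across the listed genes of each table (threshold 0.05). The adjustment runs over genes that had been selected for the same difference. With 3 libraries per group the smallest two-sided p of an exact permutation test is 0.1. The script was run on simulated data with most genes unchanged, unlike the selected genes here. That run does not measure the error of the calls here. Alternatives were pseudocounts of 0.1 and 10, a minimum mean of 50 (ARVM) or 5 (Cfib), rescaling by the median of ratios, an eBayes step with no trend, leaving out each library, a replicate block (Cfib), and edgeR 4.0.16 (quasi-likelihood, TMM) and DESeq2 1.42.0 on the ARVM reads.

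The genes and the gene lists were chosen with earlier results of these data known. Named were the members, each listed gene of the transcription complex, up to 3 called genes per list with the largest change and a mean of at least 10 (ARVM) or 1 (Cfib) in the higher group, and the 5 most similar genes, of which some items are not reported here. Others named were chosen after their values were seen. These were single lower or higher genes of a list, defining markers and the genes plotted for Cfib. Mif, Cd44, Cxcr4, B2m, Ctsl, March1, Cxcl11 and Irf1, with their bovine counterparts, were also among them. Promoters are from RefSeq (GRCr8), in which 6 of the 7 symbols matched, from 250 bases before to 50 after the start. The remaining steps used Python 3.11.15, numpy 2.4.6, pandas 2.3.3 and matplotlib 3.10.9.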

Additional observations from a re-analysis of the deposited data

How the results depend on the processing

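No direction of a member reversed under any alternative. The groups do not overlap in 100% of the listed genes, so a changed pseudocount or a library left out could not have reversed one. The pseudocount moved the low genes most. At 0.1 the log2 fold change was 8.32 for RT1-Db1, 5.92 for RT1-Ba, 9.35 for RT1-DMa and 2.39 for CD74 in Cfib, and at 10 it was 2.08 for RT1-Db1, 1.64 for RT1-Ba, 2.07 for RT1-Bb, 4.71 for RT1-DMa and 0.12 for CD74. On the reads, edgeR gave 8.11 and DESeq2 7.22 for RT1-Db1, a gene without control reads whose fitted value depends on the prior, and 2.57 and 2.66 for RT1-Ba. With single libraries left out, the values ran from −4.02 to −3.83 for Cd74, 1.74 to 2.04 for RT1-Da, 4.75 to 5.27 for RT1-Db1, 3.06 to 5.06 for RT1-Ba, 2.26 to 3.17 for RT1-Bb, 6.46 to 8.42 for RT1-DMa and 0.765 to 0.933 for CD74. The minimum mean of 50 removed RT1-Db1, RT1-Ba and RT1-Bb and that of 5 removed CD74.

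Of 7052 listed ARVM genes 6882 were called, 5976 with the minimum mean, where fewer genes were tested, 6815 with edgeR, 6668 with DESeq2 and 6452 to 6695 without single libraries. In Cfib 2063 were called, 1535 with the minimum mean, 1709 after the median of ratios and 1910 to 2052 without single libraries. The median of ratios left 0 class I chains and 0 T cell genes called higher in Cfib, against 1 each. FCGR1A of the macrophage list and ENG of the endothelial list lost their higher calls as well. This rescaling moved the median log2 fold change in Cfib by −0.27, and the cause of the lost calls was not tested. Leaving out control ARVM con5, PH-CM ARVM ha2 or PH-CM ARVM ha211 left 1 of 2 lower genes of the class II transcription list, and leaving out control ARVM con5 or PH-CM ARVM ha211 left 1 of 2 lower B cell genes. With a replicate block in Cfib 1983 genes were called and CD74 stayed at 0.83. The labels give no reason to pair equal numbers, and the deviations of equally numbered libraries correlated at 0.258, 0.0312 and 0.259. No paired analysis was possible for ARVM because the groups share no replicate numbers. Depth limits RT1-Db1, RT1-Ba and RT1-DMa in the control libraries, where they had 0, 14 and 9 reads.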
